A study of Mus musculus with 12 samples.

Results

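The 2-oxoglutarate dioxygenases are enzymes that use iron, oxygen and 2-oxoglutarate to hydroxylate or demethylate DNA, RNA, proteins and metabolites, and release succinate. Fumarate and succinate resemble 2-oxoglutarate and can compete with it at the active site, and loss of fumarate hydratase (FH), which turns fumarate into malate, is known to inhibit several of these enzymes. Here 41 of their genes were followed in livers that had received extra FH. They were picked by symbol, without the HIF prolyl hydroxylases (EGLN). The count table writes mouse symbols in capitals. Its members for DNA are TET1, TET2 and TET3, and those for histones are KDM2A, KDM2B, KDM5A, KDM5B, KDM8, KDM3A, KDM3B, JMJD1C, KDM4A, KDM4B, KDM4C, KDM6B, KDM7A and PHF2. Those of the ALKBH family are ALKBH1 to ALKBH8 and FTO, most of which act on DNA or RNA. The protein hydroxylases are HIF1AN, JMJD6, ASPH, OGFOD1, OGFOD2 and P4HTM, the collagen hydroxylases P4HA1, P4HA2, PLOD1, PLOD2, PLOD3, P3H1 and P3H2, and the metabolic enzymes PHYH and BBOX1. All 41 stood in the table of 56441 genes, and 39 of them were among the 15228 genes with enough counts to test. Tet1 and P4htm fell below that filter, with 46 and 48 counts over all 12 libraries.

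Liver RNA of mice was sequenced in 12 libraries, 3 in each of 4 groups. Fasted C57BL/6 mice had received AAV8-FH or the AAV8 vector alone and were fasted for 24 h, and ob/ob mice, which lack leptin, had received AAV8-FH or AAV8-vector and were kept on a high-fat diet (HFD). All animals were injected into the tail vein at 6 to 8 weeks of age, about 1 month before collection, so every group carried AAV8. The table's columns for fasted vector livers are named for fasting only and were matched to that group because the fasted FH columns carry FH in their names. No source used here gives the promoter in the virus or the species of its FH sequence. The labels do not say whether replicate libraries stem from different mice, so the p-values reflect variation among libraries that could be technical. Only RNA counts are reported here, not fumarate or the activity of any enzyme.

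The libraries held 19107050 to 25873379 counts in fasted FH, 12231828 to 14884323 in fasted vector, 21632289 to 23506015 in ob/ob FH and 12573267 to 14496559 in ob/ob vector livers. Genes detected numbered 18414 to 19546 in fasted FH and 20312 to 20953 in fasted vector livers. In ob/ob livers they numbered 19052 to 19922 with FH and 21360 to 21629 with the vector. In both models FH thus goes with more counts and fewer genes detected, and FH and library depth or make-up cannot be told apart. Fh1 rose with the virus by 1.35 on the log2 scale in fasted livers (SE 0.20, adjusted p = 9.95e-05) and by 2.48 in ob/ob livers (SE 0.21, adjusted p = 1.79e-06). These and all later adjusted p-values come from edgeR's quasi-likelihood test with Benjamini-Hochberg adjustment over all genes tested, and a gene is called below 0.05. Levels are in CPM, counts scaled to a common library total, after TMM scaling, which sets the bulk of genes near no change. Fh1 stood at 720 to 925 CPM in fasted FH and 238 to 408 CPM in fasted vector livers. In ob/ob livers it stood at 616 to 801 CPM with FH and 106 to 141 CPM with the vector. The TMM factors lay at 0.722 to 0.907 in FH libraries and at 1.12 to 1.37 in vector libraries. Without them, on library totals, the median FH effect of all genes was -0.71 in fasted livers and -0.63 in ob/ob livers, against -0.04 and -0.01 with TMM, so values on library totals are also given. Xist had 2242 to 4992 counts in each of the 3 ob/ob FH libraries, which had 0 counts over 4 Y-linked genes, whereas Xist had 1 to 24 counts and the Y-linked genes 2304 to 5181 in the other 9. For the ob/ob livers FH and sex markers therefore cannot be told apart. Genes of the circadian clock also moved with the groups. Dbp stood at 45.8 to 63.2 CPM in fasted FH livers, against 2.39 to 5.81 CPM in fasted vector livers, and Arntl at 1.74 to 3.74 CPM with FH, against 18.1 to 20.9 CPM with the vector. Among ob/ob vector livers replicate 2 stood apart, with 0.420 CPM of Dbp and 21.8 CPM of Arntl, where the other 2 had 35.7 and 36.7 CPM of Dbp and 4.35 and 5.96 CPM of Arntl. The ob/ob FH livers lay at 12.1 to 37.0 CPM of Dbp and 4.92 to 14.2 CPM of Arntl. The part of the clock in the members' values was not tested. The labels give liver as the tissue and hepatocyte as the cell type, and the markers of hepatocytes, endothelium, macrophages, stellate cells, cholangiocytes and lymphocytes were all detected in every group.

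With FH, the messages of Tet2, Alkbh1, Alkbh8, Plod2 and several histone demethylases were lower in both kinds of liver, and those of Fto, Plod1, Plod3 and P4ha2 were higher relative to the bulk of genes. In fasted livers 11 of the 39 tested members rose and 10 fell. Over all genes 27.4% rose and 27.6% fell, 55.0% together, so the members' share of calls was close to the background. In ob/ob livers 9 rose and 15 fell, against 25.8% and 27.9% of all genes and 53.7% together. The members' median effect was -0.28 in fasted and -0.05 in ob/ob livers. The 2 comparisons share no library, but in both FH goes with deeper libraries and fewer genes detected. The 10 members that fell in fasted livers all fell in ob/ob livers too, where they were 66.7% of the 15 that fell; over all genes the shares were 68.0% and 67.4%. Of those that rose, 8 were shared, 72.7% of the fasted and 88.9% of the ob/ob calls, against 68.8% and 73.1% over all genes. No member called in both comparisons had opposite signs. The FH libraries lay wholly above the vector libraries for 15 members and wholly below for 11 in fasted livers, beside 30.4% and 30.6% of all genes, 61.0% together. The same held for 12 and 14 members in ob/ob livers, beside 30.6% and 31.2%, 61.8% together.

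The scaling bears unequally on the 2 directions. All 10 falls in fasted livers and all 15 in ob/ob livers were also called falls on library totals. Library totals put the median of all genes at -0.71 in fasted and -0.63 in ob/ob livers. A fall with TMM could therefore hardly be lost there, so this is no test of the falls. Of the 11 rises in fasted livers 1 was also a rise on library totals, that of Fto, and of the 9 in ob/ob livers 2 were, those of Fto and Plod1. The totals called 1 member higher and 22 lower in fasted livers and 2 higher and 21 lower in ob/ob livers, beside 7.16% of all genes higher and 55.7% lower in fasted livers (62.9% together) and 6.83% and 53.3% in ob/ob livers (60.1% together). The other rises are thus rises relative to the bulk of genes.

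**Figure D1:**
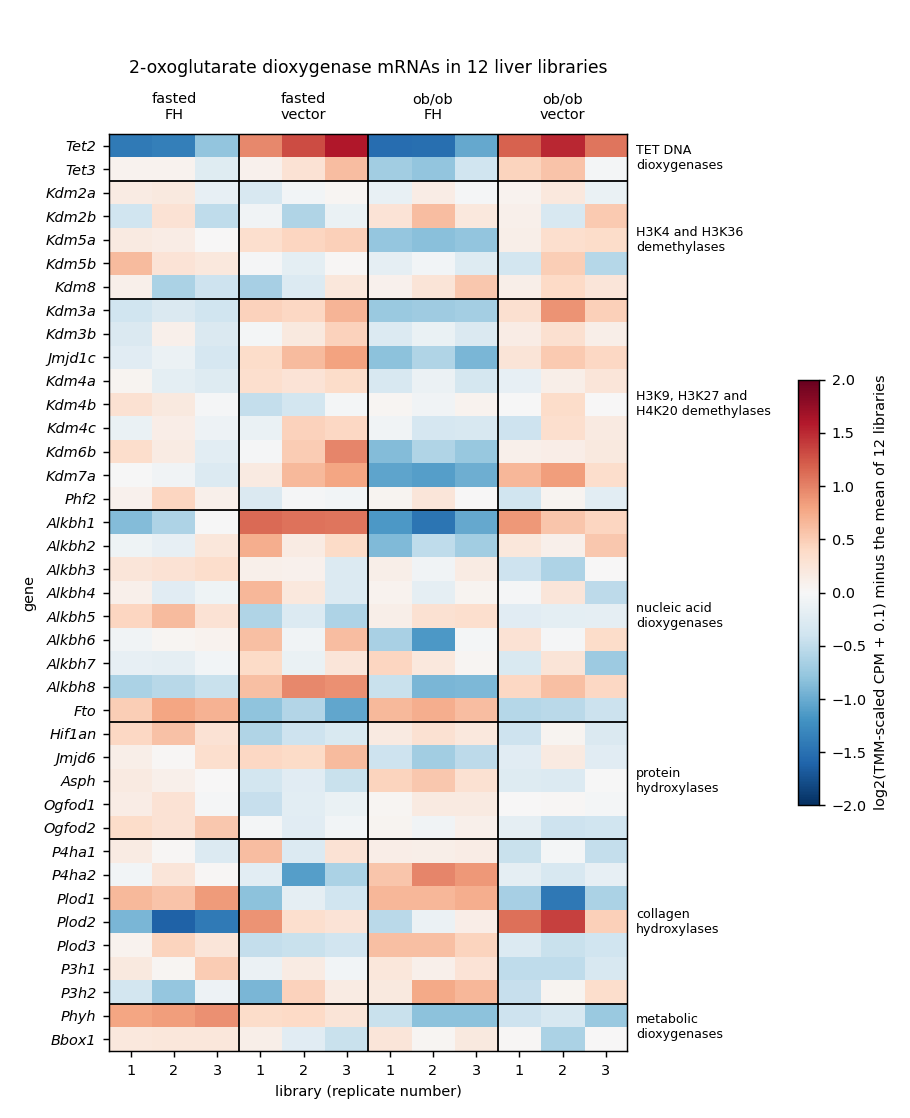
Level of the 39 tested members (down the page, by role) in each of the 12 libraries (across), as log2(TMM-scaled CPM + 0.1) minus the member's mean over the 12 libraries, red above and blue below it. Tet2, Alkbh1 and Alkbh8 are blue in all 6 FH libraries or near it and red in the 6 vector libraries, Fto and Plod1 the other way round.

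**Figure D2:**
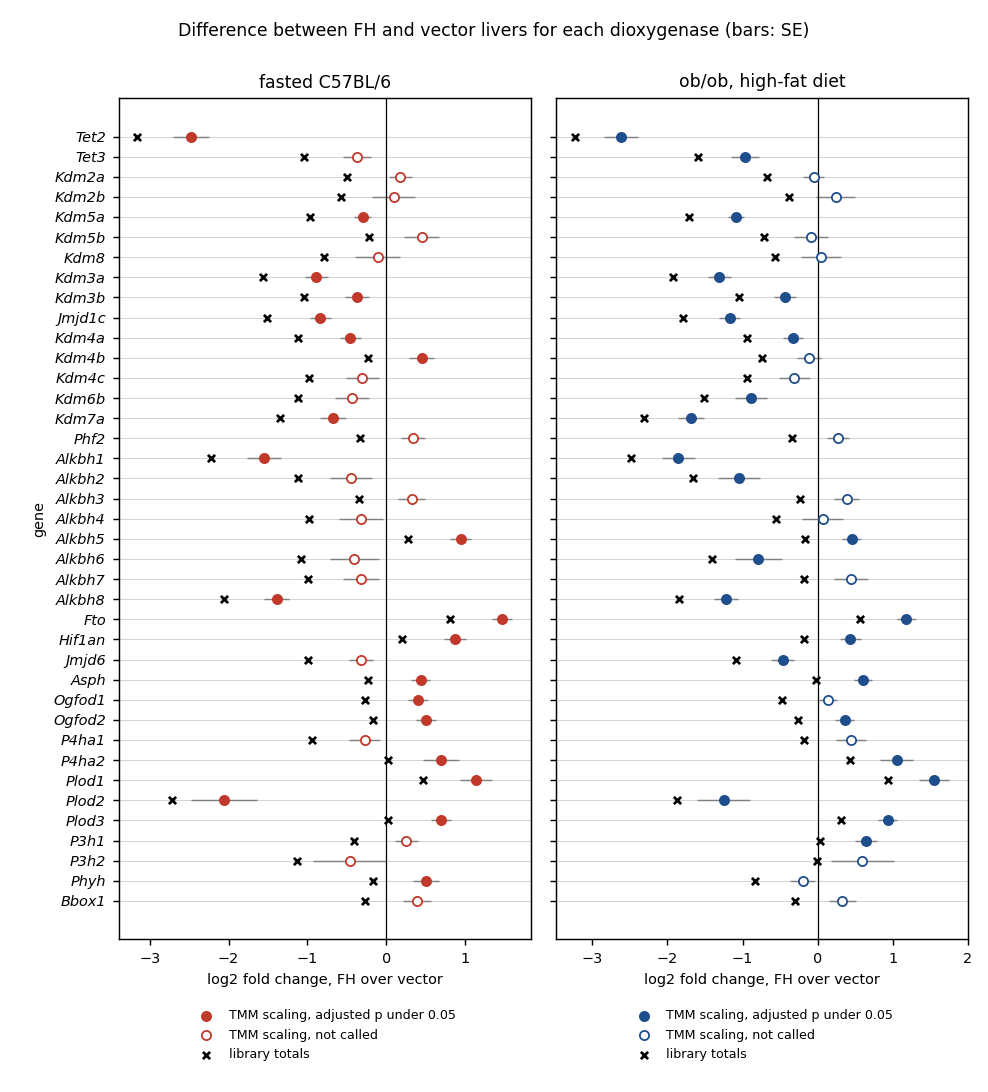
Log2 fold change of FH over vector (horizontal axis) for each tested member (vertical axis) in fasted and in ob/ob livers; circles are the TMM-scaled values with their SE, filled where called, and crosses are the values on library totals. Tet2 has the lowest value in both panels, at -2.48 and -2.62, and Fto stays above 0 on both scalings.

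The 250 bases upstream of the RefSeq transcription start (GRCm38.p6) are shown for 5 members whose messages moved in the same direction in both kinds of liver, Tet2, Alkbh1, Fto, Plod1 and Plod3. Capitals mark the core ACGTG or GCGTG of a hypoxia response element on either strand, which HIF, itself controlled by dioxygenases, is known to bind. Sequences run 5′ to 3′ on the gene's strand.
Tet2, chr3:133544391-133544640, minus strand: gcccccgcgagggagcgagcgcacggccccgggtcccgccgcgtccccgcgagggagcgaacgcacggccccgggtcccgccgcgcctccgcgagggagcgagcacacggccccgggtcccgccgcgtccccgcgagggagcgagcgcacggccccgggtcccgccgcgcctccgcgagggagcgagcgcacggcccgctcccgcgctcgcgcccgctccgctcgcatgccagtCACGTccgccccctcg
Alkbh1, chr12:87443840-87444089, minus strand: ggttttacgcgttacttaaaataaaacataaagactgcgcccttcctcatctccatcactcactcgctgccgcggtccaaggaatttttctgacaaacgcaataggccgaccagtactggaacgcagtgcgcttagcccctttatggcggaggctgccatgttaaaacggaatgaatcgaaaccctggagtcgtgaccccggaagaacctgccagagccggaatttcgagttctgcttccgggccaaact
Fto, chr8:91313275-91313524, plus strand: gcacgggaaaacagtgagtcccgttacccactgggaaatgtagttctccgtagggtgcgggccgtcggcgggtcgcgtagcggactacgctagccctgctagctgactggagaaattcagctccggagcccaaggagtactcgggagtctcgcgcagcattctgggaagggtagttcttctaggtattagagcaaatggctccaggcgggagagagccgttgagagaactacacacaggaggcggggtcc
Plod1, chr4:147936777-147937026, minus strand: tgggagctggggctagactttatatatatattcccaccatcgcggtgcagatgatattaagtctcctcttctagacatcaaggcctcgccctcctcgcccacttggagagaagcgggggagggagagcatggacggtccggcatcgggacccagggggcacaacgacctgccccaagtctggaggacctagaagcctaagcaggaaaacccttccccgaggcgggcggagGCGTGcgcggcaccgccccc
Plod3, chr5:136986769-136987018, plus strand: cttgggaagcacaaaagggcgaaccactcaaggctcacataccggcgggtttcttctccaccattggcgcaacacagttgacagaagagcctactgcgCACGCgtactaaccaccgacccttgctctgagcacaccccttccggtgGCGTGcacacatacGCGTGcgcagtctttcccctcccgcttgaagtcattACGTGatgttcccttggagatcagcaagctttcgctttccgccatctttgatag
The Tet2 window holds 51 CpG dinucleotides, and the other 4 windows hold 16 to 18. The core occurs 4 times before Plod3, 1 time each before Tet2 and Plod1 and not at all before Alkbh1 and Fto. It is a common match, present in 38.6% of 32851 promoter windows of all genes and in 23 of the 43 windows found for 33 members (53.5%). A match is a description of the letters and not a binding site. Member windows had a median of 17 CpG dinucleotides and all windows a median of 6.

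The TET enzymes oxidise 5-methylcytosine in DNA, the first step of its removal. Tet2 stood at 3.89, 4.01 and 6.05 CPM in fasted FH livers, against 20.5, 26.01 and 31.9 CPM in fasted vector livers. The ob/ob livers stood at 3.57, 3.64 and 5.11 CPM with FH, against 23.9, 30.0 and 22.1 CPM with the vector. Every FH library lay far below every vector library, in both kinds of liver. Tet2 fell 5.58-fold in fasted livers (log2 -2.48, SE 0.23, adjusted p = 3.39e-06) and 6.14-fold in ob/ob livers (log2 -2.62, SE 0.23, adjusted p = 1.92e-06). Leaving out any single library kept the call, with values of -2.72 to -2.30 in fasted and -2.83 to -2.46 in ob/ob livers. These livers are mixtures of cells, so fewer cells of a type that makes Tet2 and less Tet2 RNA per cell cannot be told apart.

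Tet3 stood at 21.2, 21.2 and 17.1 CPM in fasted FH livers, against 21.3, 24.6 and 30.9 CPM in fasted vector livers. Its levels in ob/ob livers were 12.4, 11.6 and 15.3 CPM with FH, against 27.4, 29.8 and 19.7 CPM with the vector. The groups do not overlap in either kind of liver, though 1 fasted vector library is level with the FH libraries, and the call was made in ob/ob livers (log2 -0.97, SE 0.18, adjusted p = 6.62e-04) and not in fasted livers (-0.37, SE 0.18, adjusted p = 0.101). The difference between those 2 effects was itself not called (-0.60, adjusted p = 0.170). On library totals Tet3 was called lower in both (-1.05, edgeR adjusted p = 6.75e-04 in fasted and -1.59, adjusted p = 2.54e-05 in ob/ob livers). The fasted fall was also called by edgeR with a filter of at least 1 CPM in 3 libraries (adjusted p = 0.0420). It was called too in a fit of the fasted libraries alone (adjusted p = 0.0495) and without fasted vector replicate 1 (adjusted p = 0.0320). Tet1 was barely detected, with 0, 0 and 1 counts in fasted FH livers, against 6, 7 and 5 counts in fasted vector livers. In ob/ob livers it had 4, 2 and 1 counts with FH, against 7, 10 and 3 counts with the vector. Fitted without the filter on low counts, Tet1 was called lower in fasted livers (edgeR adjusted p = 0.00772) and not in ob/ob livers (adjusted p = 0.216), and no size is given on so few counts. Among enzymes that write or read DNA methylation, 2 of 11 rose and 3 fell in fasted livers, and 4 rose and 3 fell in ob/ob livers. On library totals 7 fell in fasted livers, and 8 fell and 1 rose in ob/ob livers. Over all genes 27.4% rose and 27.6% fell in fasted livers, and 25.8% and 27.9% in ob/ob livers. The totals gave 7.16% and 55.7% of all genes in fasted livers, and 6.83% and 53.3% in ob/ob livers, in the same order. Mbd3, a subunit of the NuRD complex, rose in both (0.95 and 0.65 in log2) but was not called on library totals (0.28, adjusted p = 0.0691 and 0.03, adjusted p = 0.866). Dnmt3a, a DNA methyltransferase, fell in both (-0.44, adjusted p = 0.0471 and -0.78, adjusted p = 0.00209). Uhrf1, also of this list, rose by 2.03 in ob/ob livers (edgeR adjusted p = 7.77e-04) and by 1.43 there on library totals (adjusted p = 0.00800). In fasted livers Uhrf1 was not called (0.89, adjusted p = 0.305), and the difference between its 2 effects was not called either (1.14, adjusted p = 0.488). The median of this list was 0.09 in fasted and -0.28 in ob/ob livers, beside -0.04 and -0.01 over all genes.

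**Figure D3:**
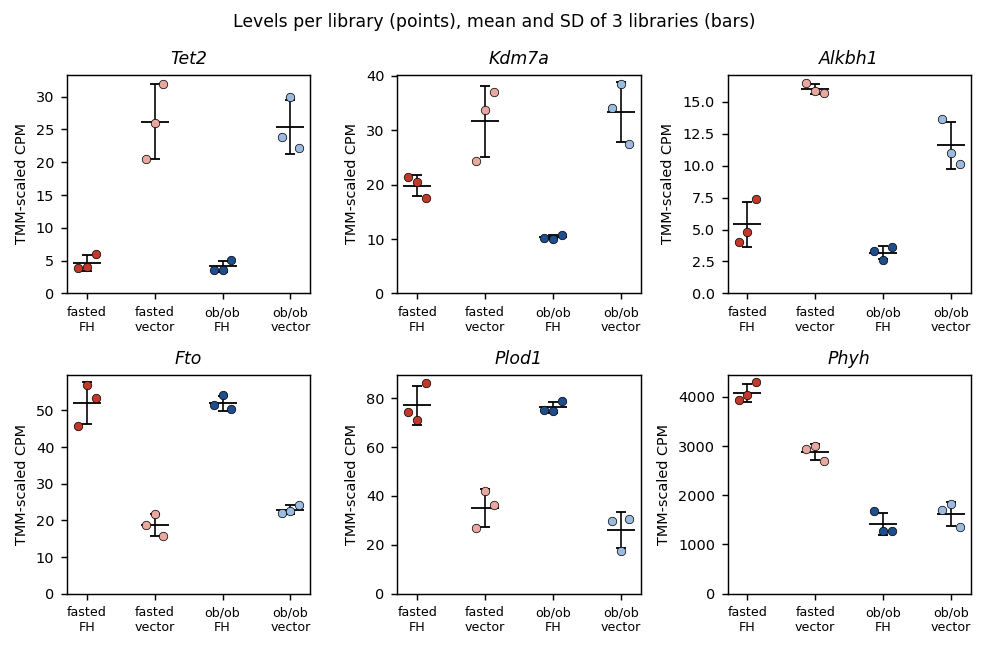
TMM-scaled CPM (vertical axes, from 0) of 6 members in each library, FH left of vector in fasted and then in ob/ob livers; points are libraries and bars the mean and SD of 3. The FH and vector points do not overlap for Tet2, Kdm7a, Alkbh1, Fto and Plod1 in either kind of liver, whereas Phyh separates by FH in fasted livers and lies lower in both ob/ob groups.

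Of the 5 demethylases of histone H3 lysine 4 and lysine 36, 1 was called. Kdm5a, which removes methyl groups from H3 lysine 4, stood at 40.6, 39.4 and 35.9 CPM in fasted FH livers, against 44.9, 48.1 and 49.5 CPM in fasted vector livers. With FH, ob/ob livers had 20.9, 20.1 and 20.5 CPM, against 38.9, 45.3 and 46.2 CPM with the vector. The FH libraries are below the vector libraries in both, by a little in the fasted and by much more in the ob/ob livers. The fall was 0.30 on the log2 scale in fasted livers (SE 0.11, adjusted p = 0.0292), a call lost when any of 4 single libraries was left out (fasted FH replicate 2 or 3, fasted vector replicate 2 or 3; adjusted p up to 0.114). It fell in ob/ob livers by 1.08 (SE 0.11, adjusted p = 5.02e-06). Its sense exons overlap Ccdc77 on the opposite strand by 251 bases, and no source says whether counting used the strand, so its value is uncertain to that extent. Exons of other genes on the opposite strand also overlap those of Kdm3b by 3292 bases, P3h2 by 1055, Kdm2b by up to 627, Plod2 by 346, Fto by up to 255, Kdm7a by 174, Kdm6b by 149, Alkbh3 by 85, Tet2 by 43 and Phf2 by 8, and those values are uncertain to the same extent. On the same strand, exons of other genes overlap those of Alkbh6 by 371 bases, Jmjd6 by 173, Alkbh3 by 172, Kdm2b by 124 and Plod3 by 9. A strand setting would not separate these, so those values are uncertain too. Kdm2a and Kdm2b, demethylases of H3 lysine 36, Kdm5b, which acts on H3 lysine 4, and Kdm8 were not called in either comparison. Kdm2a averaged 62.6 ± 8.22 CPM in fasted FH and 55.2 ± 7.08 CPM in fasted vector livers, and Kdm5b 24.9 ± 4.02 and 18.2 ± 1.39 CPM in the same order (SD, n = 3 each).

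Of the 9 demethylases of H3 lysine 9 and lysine 27, 5 fell and 1 rose in fasted livers and 6 fell and 0 rose in ob/ob livers. Over all genes 27.6% fell and 27.4% rose in fasted livers, and 27.9% fell and 25.8% rose in ob/ob livers. The list's medians were -0.43 in both, beside -0.04 and -0.01 over all genes. The ob/ob count of 0 rises by edgeR was also 0 at an unadjusted p under 0.05 and 0 by DESeq2. Kdm7a, which acts on H3 lysine 9 and lysine 27, stood at 21.4, 20.4 and 17.6 CPM in fasted FH livers, against 24.3, 33.7 and 37.0 CPM in fasted vector livers. The ob/ob FH livers had 10.2, 9.98 and 10.8 CPM, against 34.03, 38.4 and 27.5 CPM in ob/ob vector livers. The 3 ob/ob FH libraries are close together and far below all others. Kdm7a fell by 0.68 on the log2 scale in fasted livers (SE 0.16, adjusted p = 0.00332) and by 1.69 in ob/ob livers (SE 0.17, adjusted p = 5.00e-06). Kdm3a, which removes methyl groups from H3 lysine 9, stood at 14.1, 15.2 and 14.1 CPM in fasted FH livers, against 25.7, 24.7 and 29.8 CPM in fasted vector livers. In ob/ob livers it stood at 11.02, 11.3 and 11.5 CPM with FH, against 23.1, 34.7 and 25.9 CPM with the vector. Again no FH library reaches a vector library, with falls of 0.89 (SE 0.15, adjusted p = 2.30e-04) and 1.31 (SE 0.15, adjusted p = 1.28e-05) on the log2 scale.

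Jmjd1c, a relative of Kdm3a, averaged 35.1 ± 2.65 CPM in fasted FH and 62.5 ± 9.12 CPM in fasted vector livers, and 23.9 ± 2.66 CPM in ob/ob FH and 53.9 ± 5.02 CPM in ob/ob vector livers (SD, n = 3 each). It fell by 0.84 and by 1.17 on the log2 scale in fasted and ob/ob livers. Kdm3b fell by 0.37 (adjusted p = 0.0456) and 0.43 (adjusted p = 0.0235), and Kdm4a, which acts on H3 lysine 9 and lysine 36, by 0.45 (adjusted p = 0.00998) and 0.33 (adjusted p = 0.0485). The small falls were less firm than the large ones: Kdm3b lost its call without any of 4 libraries in fasted livers (fasted FH replicate 1 or 3, fasted vector replicate 2 or 3) and any of 3 in ob/ob livers (ob/ob FH replicate 1 or 3, ob/ob vector replicate 2), and Kdm4a lost its ob/ob call without any of 4 (ob/ob FH replicate 1 or 3, ob/ob vector replicate 2 or 3). Kdm6b, an H3 lysine 27 demethylase, averaged 18.2 ± 3.45 CPM in fasted FH and 24.6 ± 8.39 CPM in fasted vector livers (not called), and 10.04 ± 0.965 CPM in ob/ob FH and 18.6 ± 0.588 CPM in ob/ob vector livers, a fall of 0.89 on the log2 scale (adjusted p = 0.00328). Kdm4b rose by 0.45 in fasted livers (adjusted p = 0.0307), which turned to -0.22 on library totals and was lost without any of 4 libraries (fasted FH replicate 1 or 2, fasted vector replicate 1 or 2). That call was also lost by DESeq2 (adjusted p = 0.0592) and by edgeR with RLE factors (0.0502). In edgeR it was lost without a filter (0.0854), with at least 1 CPM in 3 libraries (0.0762) and in the fasted libraries alone (0.0733). A replicate block kept it. Kdm4c and Phf2 were not called.

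The writers of histone methylation were counted beside them. Of 31 histone lysine methyltransferases 3 rose and 10 fell in fasted livers, and 5 rose and 21 fell in ob/ob livers, with medians of -0.22 and -0.72. The shares of all genes that fell were 27.6% and 27.9%. On library totals 25 fell in each, beside 55.7% and 53.3% of all genes. Dot1l, a histone H3 methyltransferase, fell by 1.097 in fasted livers and fell by 1.504 in ob/ob livers on the log2 scale. Setd1a, which methylates H3 lysine 4, fell by 1.33 in fasted livers and fell by 1.72 in ob/ob livers. Both demethylases that use flavin in place of 2-oxoglutarate were tested, and Kdm1b rose by 0.61 in fasted and by 0.29 in ob/ob livers. On library totals Kdm1b stood at -0.07 in fasted livers, not called, and was called lower in ob/ob livers (-0.33, edgeR adjusted p = 0.0235). Kdm1a was not called with TMM in either. Library totals called Kdm1a lower in fasted (-0.64, edgeR adjusted p = 0.00194) and in ob/ob livers (-0.64, edgeR adjusted p = 0.00185).

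Among the enzymes that act on nucleic acids, messages for the demethylases of N6-methyladenosine in RNA were higher and those of 2 tRNA-modifying enzymes lower. Fto stood at 45.9, 56.8 and 53.3 CPM in fasted FH livers, against 18.7, 21.7 and 15.9 CPM in fasted vector livers. Its levels in ob/ob livers were 51.5, 54.3 and 50.3 CPM with FH, against 21.9, 22.5 and 24.3 CPM with the vector. All 6 FH libraries lie above all 6 vector libraries, by 2.77-fold in fasted livers (log2 1.47, SE 0.13, adjusted p = 3.04e-06) and 2.27-fold in ob/ob livers (log2 1.18, SE 0.13, adjusted p = 9.65e-06). On library totals Fto still rose by 0.80 and 0.56. Alkbh5 stood at 109.8, 126 and 99.2 CPM in fasted FH livers, against 53.5, 67.2 and 53.2 CPM in fasted vector livers. With FH, ob/ob livers had 88.3, 101 and 103 CPM, against 70.0, 71.4 and 72.0 CPM with the vector. The groups are apart in both, and Alkbh5 rose by 0.94 (SE 0.13, adjusted p = 5.37e-05) and by 0.45 (SE 0.13, adjusted p = 0.00912) on the log2 scale. On library totals it stood at 0.28 in fasted livers (adjusted p = 0.0837) and at -0.17 in ob/ob livers (adjusted p = 0.300), and leaving out ob/ob FH replicate 3 ended its ob/ob call (adjusted p = 0.0501).

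Of 15 writers and readers of N6-methyladenosine 6 rose and 3 fell in fasted livers, and 6 rose and 6 fell in ob/ob livers, with medians of 0.06 and 0.17. On library totals 8 fell in each, with medians of -0.62 and -0.45. Over all genes 27.4% rose and 27.6% fell in fasted livers, and 25.8% and 27.9% in ob/ob livers. The totals gave 7.16% and 55.7% of all genes in fasted livers, and 6.83% and 53.3% in ob/ob livers, in the same order. Ythdc1, a nuclear reader, fell by 0.92 and 1.32 on the log2 scale. Wtap, a subunit of the methyltransferase complex, fell by 0.56 in fasted livers and fell by 0.86 in ob/ob livers.

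Alkbh1, which acts on tRNA in mitochondria and cytosol, stood at 4.03, 4.81 and 7.39 CPM in fasted FH livers, against 16.4, 15.8 and 15.7 CPM in fasted vector livers. The ob/ob FH livers had 3.31, 2.65 and 3.61 CPM, against 13.6, 11.03 and 10.1 CPM in ob/ob vector livers. No FH library reached a vector library, and Alkbh1 fell 2.93-fold in fasted livers (log2 -1.55, SE 0.21, adjusted p = 5.15e-05) and 3.62-fold in ob/ob livers (log2 -1.85, SE 0.22, adjusted p = 1.65e-05). Its exons overlap Slirp on the opposite strand by 122 bases, so it is uncertain to that extent. Alkbh8, which completes modified uridines of the tRNA anticodon, stood at 7.14, 7.48 and 8.09 CPM in fasted FH livers, against 16.9, 21.7 and 21.0 CPM in fasted vector livers. In ob/ob livers it stood at 8.12, 5.82 and 5.91 CPM with FH, against 14.7, 16.9 and 14.7 CPM with the vector. Alkbh8 fell 2.62-fold (log2 -1.39, SE 0.16, adjusted p = 1.52e-05) and 2.33-fold (log2 -1.22, SE 0.16, adjusted p = 3.74e-05), with no overlap of the groups.

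The DNA repair enzyme Alkbh2 averaged 1.81 ± 0.288 CPM in fasted FH and 2.49 ± 0.515 CPM in fasted vector livers (not called), and 1.09 ± 0.158 CPM in ob/ob FH and 2.25 ± 0.374 CPM in ob/ob vector livers, a fall of 1.05 on the log2 scale (adjusted p = 0.00569). Its exons overlap Usp30 on the opposite strand by 329 bases, which leaves its value uncertain. Alkbh6 fell by 0.79 in ob/ob livers (adjusted p = 0.0465), a call lost without any of 4 libraries (ob/ob FH replicate 1 or 2, ob/ob vector replicate 1 or 3). Alkbh3, which repairs alkylated DNA and RNA, Alkbh4 and the mitochondrial Alkbh7 were not called in either comparison, with values of -0.32 to 0.45.

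Of the 5 protein hydroxylases tested, 4 rose and 0 fell in fasted livers and 3 rose and 1 fell in ob/ob livers, beside 27.4% of all genes that rose and 27.6% that fell in fasted and 25.8% and 27.9% in ob/ob livers. These rises are relative to the bulk of genes: on library totals 1 of the 5 fell in fasted and 2 in ob/ob livers, and the others were not called. In fasted livers edgeR gave 1 of these 5, Jmjd6, lower at an unadjusted p under 0.05, and DESeq2 called 0 lower. Hif1an, the asparaginyl hydroxylase that blocks the coactivator site of HIF, stood at 33.9, 38.5 and 31.3 CPM in fasted FH livers, against 16.8, 19.1 and 20.6 CPM in fasted vector livers. Its levels in ob/ob livers were 29.1, 31.5 and 29.5 CPM with FH, against 19.1, 26.6 and 20.9 CPM with the vector. The groups do not overlap, and Hif1an rose by 0.88 (SE 0.14, adjusted p = 1.73e-04) and by 0.44 (SE 0.14, adjusted p = 0.0168) on the log2 scale. On library totals it stood at 0.20 in fasted and -0.18 in ob/ob livers, neither called. Its ob/ob call was lost without ob/ob FH replicate 2 or ob/ob vector replicate 1.

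Asph, which hydroxylates aspartate and asparagine of epidermal growth factor domains, averaged 28.3 ± 1.76 CPM in fasted FH and 20.8 ± 1.60 CPM in fasted vector livers, and 35.6 ± 2.84 CPM in ob/ob FH and 23.4 ± 2.57 CPM in ob/ob vector livers (SD, n = 3 each). It rose by 0.44 and 0.60 and turned to -0.23 and -0.016 on library totals, and its exons overlap Clvs1 on the opposite strand by 2302 bases. Ogfod1, a prolyl hydroxylase of a ribosomal protein, rose by 0.41 in fasted livers (adjusted p = 0.0139) and stood at 0.14 in ob/ob livers (adjusted p = 0.354), and the difference between these effects was not called (-0.27, adjusted p = 0.384). That rise was lost without fasted FH replicate 2 or fasted vector replicate 1. Ogfod2 rose by 0.51 and 0.36, with an ob/ob call lost without any of 4 libraries (ob/ob FH replicate 1 or 3, ob/ob vector replicate 2 or 3). On library totals Ogfod1 stood at -0.26 in fasted livers and Ogfod2 at -0.17 and -0.26. Jmjd6, which hydroxylates lysines of splicing factors, stood at 19.1, 17.8 and 22.1 CPM in fasted FH livers, against 23.5, 23.0 and 27.4 CPM in fasted vector livers. With FH, ob/ob livers had 13.2, 10.8 and 12.2 CPM, against 15.01, 19.95 and 15.1 CPM with the vector. The groups are just apart in both, and the fall was called in ob/ob livers (log2 -0.47, SE 0.15, adjusted p = 0.0170) and not in fasted livers (-0.32, adjusted p = 0.0788). The ob/ob call was lost without ob/ob FH replicate 2 or ob/ob vector replicate 2, and its exons overlap Mettl23 on the opposite strand by 172 bases. P4htm, a transmembrane prolyl hydroxylase, had too few counts to test, at 0 to 0.214 CPM in fasted FH, 0.133 to 0.496 CPM in fasted vector, 0.0520 to 0.328 CPM in ob/ob FH and 0.0580 to 0.473 CPM in ob/ob vector livers.

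Of the 7 collagen hydroxylases, 3 rose and 1 fell in fasted livers, and 4 rose and 1 fell in ob/ob livers. Over all genes 55.0% were called in fasted and 53.7% in ob/ob livers, so these counts are near the background. On library totals 3 fell in fasted livers, and 1 rose and 1 fell in ob/ob livers. Plod1, a lysyl hydroxylase of collagen, stood at 74.4, 70.9 and 86.1 CPM in fasted FH livers, against 26.8, 42.0 and 36.1 CPM in fasted vector livers. The ob/ob FH livers had 75.1, 74.9 and 78.8 CPM, against 29.9, 17.5 and 30.6 CPM in ob/ob vector livers. All FH libraries lie well above all vector libraries, by 2.20-fold in fasted livers (log2 1.14, SE 0.20, adjusted p = 3.40e-04) and 2.94-fold in ob/ob livers (log2 1.55, SE 0.20, adjusted p = 3.50e-05). On library totals Plod1 stood at 0.47 (adjusted p = 0.0574) and 0.93.

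Plod3, a lysyl hydroxylase that also adds glucose to collagen, stood at 15.05, 19.6 and 16.9 CPM in fasted FH livers, against 10.3, 10.5 and 10.96 CPM in fasted vector livers. The ob/ob livers stood at 21.8, 21.9 and 19.7 CPM with FH, against 11.8, 10.4 and 10.9 CPM with the vector. The groups are apart in both. Plod3 rose by 0.70 (SE 0.13, adjusted p = 4.81e-04) and 0.93 (SE 0.13, adjusted p = 4.81e-05) on the log2 scale, and on library totals stood at 0.03 and 0.31, neither called. Its exons overlap Znhit1 on the opposite strand by 315 bases.

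Plod2, the lysyl hydroxylase of collagen telopeptides, moved the other way at a very low level. It stood at 0.495, 0.267 and 0.321 CPM in fasted FH livers, against 1.99, 1.32 and 1.26 CPM in fasted vector livers. Its levels in ob/ob livers were 0.673, 0.936 and 1.13 CPM with FH, against 2.32, 2.78 and 1.46 CPM with the vector. The groups do not overlap, and Plod2 fell by 2.06 (SE 0.42, adjusted p = 0.00104) and by 1.25 (SE 0.36, adjusted p = 0.00906) on the log2 scale. It had 262 counts over all 12 libraries, which sets the width of its error.

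P4ha2, a catalytic subunit of collagen prolyl 4-hydroxylase, stood at 4.88, 6.01 and 5.19 CPM in fasted FH livers, against 4.40, 2.33 and 3.25 CPM in fasted vector livers. With FH, ob/ob livers had 7.55, 10.1 and 9.38 CPM, against 4.46, 4.04 and 4.55 CPM with the vector. No vector library reached an FH library in either. It rose by 0.69 in fasted livers (SE 0.23, adjusted p = 0.0189), a call lost without fasted FH replicate 2 or fasted vector replicate 2, and by 1.05 in ob/ob livers (SE 0.21, adjusted p = 0.00109). On library totals it was not called (0.022, adjusted p = 0.943 and 0.44, adjusted p = 0.116). P4ha1, the other such subunit, was not called, at 17.8, 16.2 and 13.2 CPM in fasted FH livers, against 24.6, 13.2 and 19.5 CPM in fasted vector livers. The ob/ob FH livers had 17.5, 17.4 and 17.7 CPM, against 11.71, 15.4 and 11.5 CPM in ob/ob vector livers. The fasted groups overlap, and the ob/ob groups do not (log2 0.45, adjusted p = 0.0748). On library totals P4ha1 was called lower in fasted livers (-0.95, edgeR adjusted p = 0.00175) and not called in ob/ob livers (-0.17, adjusted p = 0.494). P3h1, a prolyl 3-hydroxylase, stood at 15.9, 14.7 and 16.4 CPM in ob/ob FH livers, against 9.57, 9.50 and 10.9 CPM in ob/ob vector livers, a rise of 0.65 (SE 0.14, adjusted p = 0.00210) that became 0.03 on library totals. In fasted livers it stood at 15.7, 13.96 and 19.4 CPM with FH, against 12.6, 15.3 and 13.1 CPM with the vector, which overlap. P3h2 was not called.

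The collagens these enzymes act on moved with FH in ob/ob livers. Of 22 collagen, folding and crosslinking genes 4 rose and 5 fell in fasted livers, and 21 rose and 0 fell in ob/ob livers, where the median was 1.097 (0.49 on library totals). On library totals 2 rose and 11 fell in fasted livers, and 10 rose in ob/ob livers. Over all genes 27.4% rose and 27.6% fell in fasted livers, and 25.8% and 27.9% in ob/ob livers. The totals gave 7.16% and 55.7% of all genes in fasted livers, and 6.83% and 53.3% in ob/ob livers, in the same order. Col1a1 and Col1a2, the chains of type I collagen, rose by 1.81 and 1.65 in ob/ob livers and stood at 0.30 (adjusted p = 0.326) and 0.17 (adjusted p = 0.380) in fasted livers. No fall in ob/ob livers was seen by edgeR at an unadjusted p under 0.05 or by DESeq2 (0 each). For these 22 the FH effect was higher in ob/ob than in fasted livers for 12 and lower for 0 (edgeR on the difference), against 4.77% and 3.65% of all genes. Of the 7 collagen hydroxylases 0 differed between the models in that test, with 1 higher at an unadjusted p under 0.05 and 0 by DESeq2. The markers of matrix-making and other nonparenchymal cells moved too, beside the shares of all genes that rose and fell with FH given above. Of 11 stellate markers 7 rose in ob/ob and 2 fell in fasted livers, and their summed level was 535.7 to 641 CPM in ob/ob FH and 335 to 351 CPM in ob/ob vector livers, and 215 to 387 CPM in fasted FH and 361 to 402 CPM in fasted vector livers. The stellate list holds 3 of the collagens. Of 11 macrophage markers 9 rose in ob/ob and 9 fell in fasted livers, with sums of 721 to 1000.2 CPM in ob/ob FH, 353 to 544 CPM in ob/ob vector, 255 to 285 CPM in fasted FH and 491 to 665 CPM in fasted vector livers. All 9 endothelial markers tested fell in fasted livers, and 5 rose and 1 fell in ob/ob livers. Their sums were 169 to 204 CPM in fasted FH, 349.7 to 439.9 CPM in fasted vector, 319 to 389.7 CPM in ob/ob FH and 235 to 295 CPM in ob/ob vector livers. Of 9 lymphocyte markers 1 fell in fasted livers, and 3 rose and 1 fell in ob/ob livers, at 6.75 to 9.68, 21.98 to 31.6, 17.6 to 31.0 and 30.9 to 39.3 CPM in the same order. The 5 cholangiocyte markers summed to 22.8 to 33.1, 25.8 to 35.1, 62.8 to 71.8 and 47.2 to 61.5 CPM in that order. These counts depend on the scaling, and the shares of all genes on library totals are those given above. On library totals 2 endothelial markers rose and 4 fell in ob/ob livers, 4 macrophage markers rose and 1 fell, 4 stellate markers rose and 1 fell, and 2 lymphocyte markers fell. In fasted livers the totals gave falls for 9 endothelial, 10 macrophage, 8 stellate, 6 lymphocyte and 2 cholangiocyte markers. No marker of these lists was at 0 in a whole group. The part of these cells in the members' values was not tested.

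The metabolic dioxygenases are by far the most abundant members. Per kilobase of exon, Phyh had 2159 CPM per kb in fasted FH and 1522 in fasted vector livers, Bbox1 61.2 and 46.6, Alkbh5 18.7 and 9.68, and Tet2 0.276 and 1.55, in the same order. Phyh hydroxylates phytanoyl-CoA in peroxisomes, the start of alpha-oxidation. It stood at 3936, 4032 and 4292 CPM in fasted FH livers, against 2934, 3007 and 2705 CPM in fasted vector livers. In ob/ob livers it stood at 1674, 1282 and 1281 CPM with FH, against 1696, 1821 and 1354 CPM with the vector. The fasted groups are apart and the ob/ob groups overlap. Phyh rose by 0.50 in fasted livers (SE 0.17, adjusted p = 0.0219) and stood at -0.20 in ob/ob livers (adjusted p = 0.334), and the difference between the 2 effects was not called by edgeR (-0.70, adjusted p = 0.0853) and was called by DESeq2 (-0.68, adjusted p = 0.0179). The fasted rise turned to -0.17 on library totals and was lost without fasted FH replicate 3, fasted vector replicate 1 or fasted vector replicate 3. In ob/ob livers library totals called Phyh lower with FH (-0.83, edgeR adjusted p = 3.36e-04), with the FH libraries below the vector libraries.

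Bbox1 carries out the last step of carnitine synthesis. It stood at 268, 269.9 and 271 CPM in fasted FH livers, against 249.2, 197 and 169 CPM in fasted vector livers. Its levels in ob/ob livers were 273, 237 and 263 CPM with FH, against 234, 148 and 232 CPM with the vector. The FH libraries are above the vector libraries in both, by less than the test's threshold (0.39, adjusted p = 0.0793 in fasted and 0.33, adjusted p = 0.138 in ob/ob livers), and library totals gave -0.27 and -0.30. Of 13 tested genes of carnitine synthesis and phytanate oxidation 9 rose and 0 fell in fasted livers, and 4 rose and 0 fell in ob/ob livers, with medians of 0.70 and 0.33. Falls were 0 by DESeq2 and at an unadjusted edgeR p under 0.05 as well. The scaling decides this count, since library totals gave 2 rises and 3 falls in fasted livers (median 0.036) and 1 rise and 5 falls in ob/ob livers (median -0.30). Over all genes 27.4% rose and 27.6% fell in fasted livers, and 25.8% and 27.9% in ob/ob livers. The totals gave 7.16% and 55.7% of all genes in fasted livers, and 6.83% and 53.3% in ob/ob livers, in the same order. Aldh9a1, an earlier enzyme of carnitine synthesis, rose by 0.84 and 0.99 and stood at 0.17 (adjusted p = 0.241) and 0.36 (adjusted p = 0.0220) on library totals. Acox2, the peroxisomal branched-chain oxidase, rose by 1.08 and 0.91 and stood at 0.41 (adjusted p = 0.0233) and 0.29 (adjusted p = 0.0981) on library totals.

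The genes that supply or remove the cosubstrate and its competitors were mostly higher relative to the bulk of genes. Of 28 such genes 24 rose and 2 fell in fasted livers, and 22 rose and 2 fell in ob/ob livers, with medians of 0.92 and 0.76. Over all genes 27.4% rose and 27.6% fell in fasted livers, and 25.8% and 27.9% in ob/ob livers, at medians of -0.04 and -0.01. On library totals 11 of the 28 rose and 3 fell in fasted livers, beside 7.16% and 55.7% of all genes. In ob/ob livers 7 rose and 4 fell on library totals, beside 6.83% and 53.3% of all genes. Got2, the mitochondrial aspartate aminotransferase, which interconverts glutamate and 2-oxoglutarate, rose by 1.87 and 1.62. Sdha, which oxidises succinate, and Ogdh, which consumes 2-oxoglutarate, rose by 1.48 and 1.76 in fasted livers and by 0.97 and 1.37 in ob/ob livers. Fah, which releases fumarate from tyrosine, rose by 1.21 in fasted and by 1.33 in ob/ob livers. Hepatocyte markers rose as well, 9 of 10 in fasted and 8 of 10 in ob/ob livers (4 and 4 on library totals, where 1 fell in each), with sums of 194280 to 201769 CPM in fasted FH, 63275 to 87524 CPM in fasted vector, 146929 to 180853 CPM in ob/ob FH and 52203 to 64088 CPM in ob/ob vector livers.

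Other dioxygenases of the superfamily, outside the 41, gave 9 rises and 4 falls among 16 tested in fasted livers and 9 rises and 2 falls in ob/ob livers, with medians of 0.46 and 0.61. On library totals 4 rose and 6 fell in fasted livers (median -0.21), and 2 rose and 6 fell in ob/ob livers (median -0.0095). Over all genes 27.4% rose and 27.6% fell in fasted livers, and 25.8% and 27.9% in ob/ob livers. The totals gave 7.16% and 55.7% of all genes in fasted livers, and 6.83% and 53.3% in ob/ob livers, in the same order. Jmjd8 rose by 1.55 and 1.78 and Ogfod3 by 1.72 and 1.40, whereas Phyhd1 fell by 1.97 in fasted livers and fell by 3.21 in ob/ob livers. As background, 9 members (Kdm3a, Kdm4b, Kdm4c, Kdm2b, P4ha1, P4ha2, Plod1, Plod2 and Jmjd6) are known as targets of HIF in other cells. Of these, 3 rose and 2 fell in fasted livers and 2 rose and 3 fell in ob/ob livers, beside 55.0% and 53.7% of all genes called. Plod1 and P4ha2 rose relative to the bulk of genes while Kdm3a and Plod2 fell. On library totals 5 of the 9 fell in fasted livers, and 5 fell and 1 rose in ob/ob livers.

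The FH effect was compared between the 2 kinds of liver by its own test. It was lower in ob/ob livers for 2 of the 39 members and higher for 0, against 3.65% and 4.77% of all genes and 8.42% together. At an unadjusted edgeR p under 0.05, 2 members were higher, and DESeq2 called 0 higher. Library totals also gave 2 lower and 0 higher, beside 2.37% and 4.74% of all genes and 7.11% together. Both were histone demethylases. The effect on Kdm5a was 0.79 log2 units lower (SE 0.15, adjusted p = 0.00829) and that on Kdm7a 1.01 units lower (SE 0.23, adjusted p = 0.0186). Leaving out ob/ob FH replicate 2 ended the call for Kdm7a (adjusted p = 0.0553), and that for Kdm5a was kept without any single library (-0.86 to -0.71). This comparison rests on the ob/ob FH libraries, so FH and sex markers cannot be told apart in it. For Tet2 the 2 effects differed by -0.14 (adjusted p = 0.829).

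Between the models, with the vector alone, few members differed. By edgeR 0 were higher in ob/ob than in fasted vector livers and 3 were lower, against 9.36% and 8.18% of all genes and 17.5% together. At an unadjusted p under 0.05, 3 were higher, and DESeq2 called 0 higher. The groups were apart for 10 members, 4 above and 6 below, beside 14.8% of all genes in either direction and 29.6% together. Phyh was 0.83 log2 units lower (SE 0.17, adjusted p = 0.00497), Jmjd6 0.56 units lower (SE 0.15, adjusted p = 0.0192) and P3h1 0.45 units lower (SE 0.15, adjusted p = 0.0474), from the libraries given above. P3h1 lost the call without any 1 of the 6 libraries, and Jmjd6 without fasted vector replicate 3, ob/ob vector replicate 1 or ob/ob vector replicate 3. A fit of the vector libraries alone ended all 3 calls (adjusted p = 0.0542 for Phyh, 0.0730 for Jmjd6 and 0.139 for P3h1). On library totals Phyh kept its call, and Kdm4b, Alkbh5, Fto, Asph and Ogfod1 became higher, by 0.38 to 0.62, beside 17.9% of all genes higher, 4.21% lower and 22.1% in all. Leptin, high-fat diet and the 24 h fast go with these groups by their labels and cannot be told apart. The sample titles name no background strain and no fast for the ob/ob mice, so strain cannot be told apart either.

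**Figure D4:**
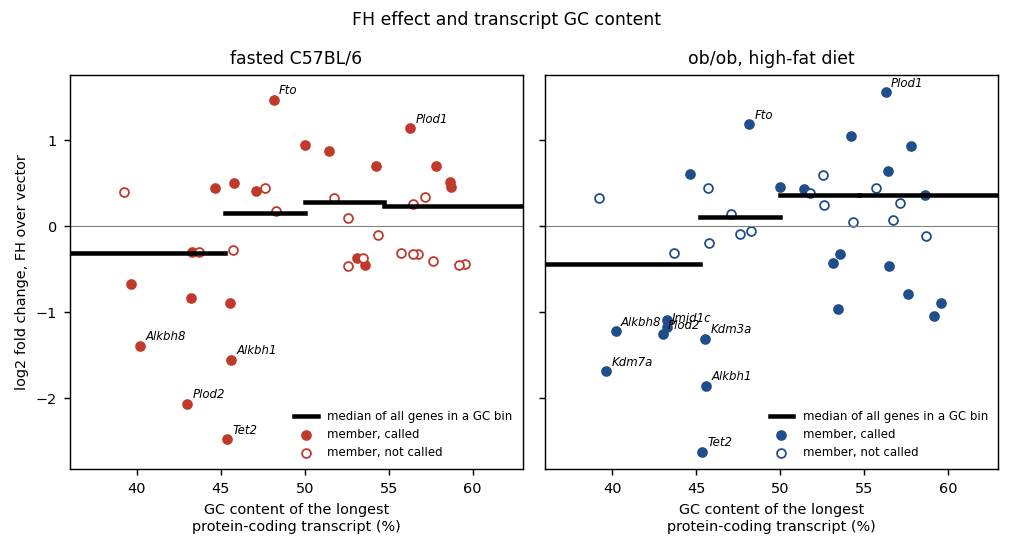
Log2 fold change of FH over vector (vertical axis) against the GC content of the longest protein-coding transcript in percent (horizontal axis, GENCODE M21) for the 39 tested members, filled where called; black lines are medians, in 4 GC bins, of the 12716 tested genes matched to a transcript, drawn within the axis range. Tet2, at 45.4% GC, has the lowest value and lies next to the upper edge of the lowest bin, at 45.2%.

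Transcript composition moved with the FH effect across the 12716 of 15228 tested genes that were matched to a transcript. In the lowest of 4 equal bins of GC content 38.6% fell in fasted and 46.1% in ob/ob livers, at medians of -0.32 and -0.44. In the highest bin 18.3% and 12.8% fell, at medians of 0.23 and 0.36. Members that fell had a median GC content of 44.3% in fasted and 45.6% in ob/ob livers, and those that rose 51.5% and 54.2%. Members not called had 53.9% and 51.8%, so in fasted livers they lay above those that rose. Median transcript lengths of members were 7018 and 6363 bases where they fell, 4577 and 3280 bases where they rose, and 3656 and 4043 bases where they were not called. Tet2, at 45.4% GC and 9179 bases, lay at the low edge of GC bin 2, counted from the lowest. The median of that bin over all genes was 0.15 in fasted and 0.11 in ob/ob livers. The lowest bin, with the medians of -0.32 and -0.44, ends at 45.2%. By length Tet2 lay in the longest of 4 bins, with medians of -0.08 in fasted and -0.14 in ob/ob livers. Malat1, a nuclear noncoding RNA, was at 48.8 to 80.9 CPM in fasted FH, 455 to 558 CPM in fasted vector, 12.7 to 33.2 CPM in ob/ob FH and 358 to 456 CPM in ob/ob vector livers. The part of GC content, length or RNA make-up in the members' values was not tested.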

How the data were processed

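The authors deposited a table of raw counts per gene for 12 libraries, used as given. Alignment used STAR 2.7.11a and GRCm39, per the submitters' processing notes, and per the labels' protocols libraries came from TRIzol-extracted total RNA with a stranded mRNA kit. No label or header names the counting tool, its annotation or its strand setting. Groups came from the labels; columns named for fasting only were taken as the fasted vector libraries, since the fasted FH columns carry FH.

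Counts were filtered with filterByExpr (minimum count 10, minimum total 15) and tested in R 4.3.3 with the quasi-likelihood F test of edgeR 4.0.16 after TMM scaling. The model held the 4 groups and 12 libraries, leaving 8 residual degrees of freedom. P-values were adjusted by Benjamini-Hochberg across 15228 genes and called below 0.05; ± is an SD over libraries and SE that of a log2 fold change. DESeq2 1.42.0, other scalings and filters, a replicate block and single left-out libraries were alternatives. The steps were tested on simulated data. Symbols, exon lengths, overlaps and transcript GC content came from GENCODE M21 (GRCm38), and promoters from RefSeq.

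All members were accounted for. Values per library are given for Tet1, Tet2, Tet3, Fto, Alkbh5, Hif1an, P4ha1, Phyh and Bbox1 and for the up to 4 largest called rises and falls of each comparison; other lists name up to 3 called genes with the smallest adjusted p. The members and lists were chosen with earlier results of these data known.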

Additional observations from a re-analysis of the deposited data

Results flagged for a closer look

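Effects of FH that differed between ob/ob and fasted livers, by the test of the difference itself, were found for 6 of the genes named with their values, 2 of which are members, Kdm5a and Kdm7a. Fh1 rose more in ob/ob than in fasted livers, by 1.13 on the log2 scale (edgeR adjusted p = 0.0267). That larger rise started from a lower level, since Fh1 was 1.39 log2 units lower in ob/ob than in fasted vector livers (edgeR adjusted p = 5.78e-04). With FH its levels overlapped, at 616 to 801 CPM in ob/ob and 720 to 925 CPM in fasted livers. The effect on Kdm5a differed by -0.79 (adjusted p = 0.00829), with 3 of 3 ob/ob FH libraries below all ob/ob vector libraries and 3 of 3 fasted FH libraries below all fasted vector libraries. The effect on Kdm7a differed by -1.01 (adjusted p = 0.0186), again with the FH libraries lower in both. The effects on Col1a1 and Col1a2 were higher in ob/ob than in fasted livers by 1.51 (adjusted p = 0.0134) and 1.49 (adjusted p = 0.00201). That on the clock gene Arntl was higher by 2.85 (adjusted p = 0.0334), with 1 ob/ob vector library apart from the other 2. FH and sex markers cannot be told apart in the ob/ob comparison and so in these differences.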

How the results depend on the processing

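Library totals in place of TMM moved most results. They gave 1 member higher and 22 lower in fasted livers (all genes 1090 and 8488), 2 higher in ob/ob livers (all genes 1040 and 8109), 361 genes lower for the difference between the FH effects, and 5 members higher and 1 lower between the vector groups (all genes 2729 and 641). On library totals signs turned for some members called with TMM in the same comparison, and for Bbox1 and P4ha1. In fasted livers these were Asph -0.23, Bbox1 -0.27, Kdm4b -0.22, Ogfod1 -0.26, Ogfod2 -0.17 and Phyh -0.17. In ob/ob livers they were Alkbh5 -0.17, Asph -0.016, Bbox1 -0.30, Hif1an -0.18, Ogfod2 -0.26 and P4ha1 -0.17. Other members not called with TMM turned too. Those that became falls called by edgeR were Kdm2a (-0.49, adjusted p = 0.0166) and P3h1 (-0.41, adjusted p = 0.0231) in fasted livers. In ob/ob livers Ogfod1 did so (-0.48, adjusted p = 0.00959). Without a filter on low counts 1 member, P4ha1, was higher in the difference (0.77, adjusted p = 0.0359), with 1095 genes in all. A fit of only the vector libraries called 0 members lower, where DESeq2 called 4 and the edgeR fit of all groups gave 7 at an unadjusted p under 0.05 (698 genes higher, 546 lower). Leaving out single libraries gave 8 to 10 members higher and 8 to 14 lower in fasted livers (all genes 3698 to 3934 and 3517 to 4351), 7 to 11 and 12 to 14 in ob/ob livers (3275 to 3918 and 3626 to 4191), 0 to 1 and 1 to 2 for the difference (376 to 875 and 190 to 776), and 0 and 1 to 4 between the vector groups (848 to 1872 and 793 to 1540). Without ob/ob vector replicate 2, which stood apart in clock genes, 11 members rose and 12 fell in ob/ob livers. With the replicate number as a block 12 members rose and 10 fell in fasted livers and 9 rose and 14 fell in ob/ob livers, where Kdm4a lost its call (-0.33, adjusted p = 0.0675). Of 18 pairs of libraries with the same number 4 correlated above 0.1 (r from -0.185 to 0.189). Libraries with different numbers reached 0.225 (ob/ob FH replicate 1 and ob/ob vector replicate 2). These values can neither show nor exclude that the numbers pair the samples. RLE factors and DESeq2 changed no count of members by over 1.5 times in the FH comparisons. Depth limits Tet1, P4htm, P3h2 and Plod2, with 46 to 262 counts in all.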
